A study of Homo sapiens with 9 samples.

Results

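The seed family of hsa-mir-130a is represented here by 5 miRNA hairpins: hsa-mir-130a itself, hsa-mir-130b, hsa-mir-301a, hsa-mir-301b and hsa-mir-454. They were taken by name from the count table, where each name has a row of its own among 1485 hairpin rows. Each averaged 10 counts or more in both cell lines. The libraries hold RNA of mature miRNA size from 2 human cell lines that received siRNAs against ERH or control siRNAs. HEK293E cells, derived from the human embryonic kidney line HEK293, were transfected with a lipid reagent on days 0 and 3 and harvested on day 5. Replicates 1 and 2 each hold a siGFP, a siControl and a siERH-3 library, and replicate 2 also holds the only siERH-5 library of this line. K562, a leukaemia line with erythroid features, was electroporated with siGFP or siERH-5 and harvested after 4 days, with a single library per siRNA. The labels place the libraries of replicate 1 and replicate 2 of HEK293E and the 2 K562 libraries in 3 separate experimental groups. They do not say whether replicates came from separate cultures, so p-values measure only the spread between these libraries, which may be technical.

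The 9 libraries held 2609929 to 3320017 hairpin counts each. Blood-lineage hairpins checked the cell line labels: 5 of them (hsa-mir-144, hsa-mir-451a, hsa-mir-486-1, hsa-mir-142 and hsa-mir-223) summed to 1083 to 1724 counts per 1000000 (CPM) in the 7 HEK293E libraries and to 143414 and 111757 CPM in the 2 K562 libraries. ERH mRNA was not measured in small RNA libraries, so the knockdown was not checked here. Transfection method, harvest time and cell line change together, and their parts in a difference between the lines cannot be told apart.

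A miRNA is cut from a hairpin in a primary transcript by the Microprocessor, a complex of the nuclease Drosha and the RNA-binding protein DGCR8, and then by Dicer, and the mature strand guides Argonaute to mRNAs that pair with its seed. Members of this family share their seed and so share most predicted targets. ERH is a small conserved nuclear protein that binds DGCR8. Hairpins that lie side by side can be cut from a single transcript, so a ratio of neighbours compares products that may have a common precursor.

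The mature 3p strands are shown because the seed, bases 2 to 8 counted from the 5′ end and printed in capitals, is what defines the family. The sequences are from RefSeq, GRCh38.p14.
hsa-miR-130b-3p: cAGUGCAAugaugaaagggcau
hsa-miR-301a-3p: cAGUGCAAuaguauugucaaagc
hsa-miR-301b-3p: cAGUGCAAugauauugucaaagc
hsa-miR-454-3p: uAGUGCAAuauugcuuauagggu
hsa-miR-148a-3p: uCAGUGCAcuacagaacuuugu

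The first 4 carry the seed AGUGCAA, and hsa-miR-148a-3p, from a separate family, carries a seed shifted by 1 base that holds 6 bases of it. Of 2370 mature names in the RefSeq table, 6 have the family seed: these 4, hsa-miR-3666 and hsa-miR-4295. The hairpins of the last 2 have no row in the count table, so they could not be analysed here. The RefSeq table has no entry for hsa-miR-130a-3p, so that strand could not be counted among the 6 names. The MIR130A hairpin sequence holds 1 match to the seed. Outside the seed the strands diverge. hsa-miR-301a-3p and hsa-miR-301b-3p are identical at 21 of 23 positions and differ by A10G and G11A (the base of hsa-miR-301a-3p, the position from the 5′ end, the base of hsa-miR-301b-3p), although they lie on different chromosomes. Every other pair of the 4 strands is identical at 10 to 13 of the 22 or 23 positions compared. How the authors assigned reads that fit more than 1 hairpin is not given in the sources used here.

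The family sits at 3 loci (GRCh38, GENCODE release 29). hsa-mir-301b (chr22:21652981-21653058, plus strand) and hsa-mir-130b (chr22:21653304-21653385, plus strand) are separated by 245 bases within the noncoding transcript AP000553.1, with hsa-mir-301b in its intron 1 and hsa-mir-130b overlapping an exon. hsa-mir-301a (chr17:59151136-59151221, minus strand) and hsa-mir-454 (chr17:59137758-59137872, minus strand) both lie in intron 1 of SKA2, a protein-coding gene for a component of the spindle and kinetochore associated complex, 13263 bases apart. hsa-mir-130a (chr11:57641198-57641286, plus strand) is solitary, in intron 1 of AP000662.1, a transcript annotated as sense overlapping. Hairpins of 3 members are shown with the mature 3p strand in capitals, since the counts are per hairpin and do not separate the 5p from the 3p strand.
MIR301A: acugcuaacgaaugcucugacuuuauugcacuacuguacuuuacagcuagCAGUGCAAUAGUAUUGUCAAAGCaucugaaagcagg
MIR454: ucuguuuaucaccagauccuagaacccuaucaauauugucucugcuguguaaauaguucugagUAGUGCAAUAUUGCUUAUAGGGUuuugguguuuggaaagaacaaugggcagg
MIR130B: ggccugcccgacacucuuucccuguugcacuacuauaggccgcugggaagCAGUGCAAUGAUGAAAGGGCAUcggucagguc

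The hairpins differ in base composition and length. The G+C content was 39.1% for hsa-mir-454 and 40.7% for hsa-mir-301a, against 50.6% for hsa-mir-130a, 52.6% for hsa-mir-301b, 57.3% for hsa-mir-130b and a median of 51.1% over the hairpins tested in HEK293E. The neighbours on chromosome 17 thus lie on the low side and hsa-mir-130b on the high side. hsa-mir-454 has the longest annotated hairpin, at 115 nt, and the others have 78 to 89 nt. The minimum free energy per nucleotide computed with RNAfold was -0.35 kcal/mol for hsa-mir-301a, -0.36 for hsa-mir-454, -0.40 for hsa-mir-301b, -0.44 for hsa-mir-130b and -0.47 for hsa-mir-130a, the last at the median of -0.47.

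Levels were first compared across libraries as CPM, scaled by TMM within each line. The sequenced fragments were all of 18–30 nt, so levels were not divided by length. In HEK293E, hsa-mir-301a, from the SKA2 intron, stood at 1561 CPM with siGFP, 2506 with siControl and 3219 with siERH-3 in replicate 1, and at 5931 with siGFP, 6969.97 with siControl, 5280.2 with siERH-3 and 4383 with siERH-5 in replicate 2. Its level was higher in each replicate 2 library than in any replicate 1 library, whichever siRNA was given. hsa-mir-454, its neighbour in the intron, stood at 891, 1369 and 1142 CPM with siGFP, siControl and siERH-3 in replicate 1, and at 1672, 2343, 1363 and 1149 CPM with siGFP, siControl, siERH-3 and siERH-5 in replicate 2. Here the highest values were those of the replicate 2 controls, and the siERH libraries lay between them and the siGFP library of replicate 1.

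hsa-mir-130b stood at 2168, 3231 and 2928 CPM (siGFP, siControl, siERH-3) in replicate 1 and at 3978, 4967, 3636 and 3065 CPM (siGFP, siControl, siERH-3, siERH-5) in replicate 2. hsa-mir-301b, just upstream of it, was the least abundant member in HEK293E, with 674, 818 and 743 CPM in replicate 1 and 1332, 1447, 1020.5 and 874 CPM in replicate 2, in the same order of siRNAs. For both, the replicate 2 controls were again highest, and siERH and control libraries overlapped. The solitary hsa-mir-130a stood at 1016, 1467 and 1763 CPM in replicate 1 and at 2544, 3151, 2675 and 2124 CPM in replicate 2, and its siERH values all fell inside the range of the controls.

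The mean over the 4 HEK293E control libraries was 4242 ± 2614 CPM for hsa-mir-301a (SD, n = 4), 3586 ± 1183 for hsa-mir-130b, 2044 ± 977 for hsa-mir-130a, 1569 ± 608 for hsa-mir-454 and 1068 ± 379 for hsa-mir-301b. In this order hsa-mir-301a and hsa-mir-130b, hsa-mir-130a and hsa-mir-454, and hsa-mir-454 and hsa-mir-301b each differed by less than the SD of the more abundant of them, and only hsa-mir-130b and hsa-mir-130a differed by more. Within single libraries the lower ranks were the same throughout: hsa-mir-130a exceeded hsa-mir-454, which exceeded hsa-mir-301b, in all 7 HEK293E libraries. hsa-mir-130b led in the 2 replicate 1 controls and hsa-mir-301a in the other 5 HEK293E libraries. Among all hairpins the members ranked from 48 to 180 by count in the controls, so each is well expressed and counting error is small against the spread between libraries.

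**Figure D1:**
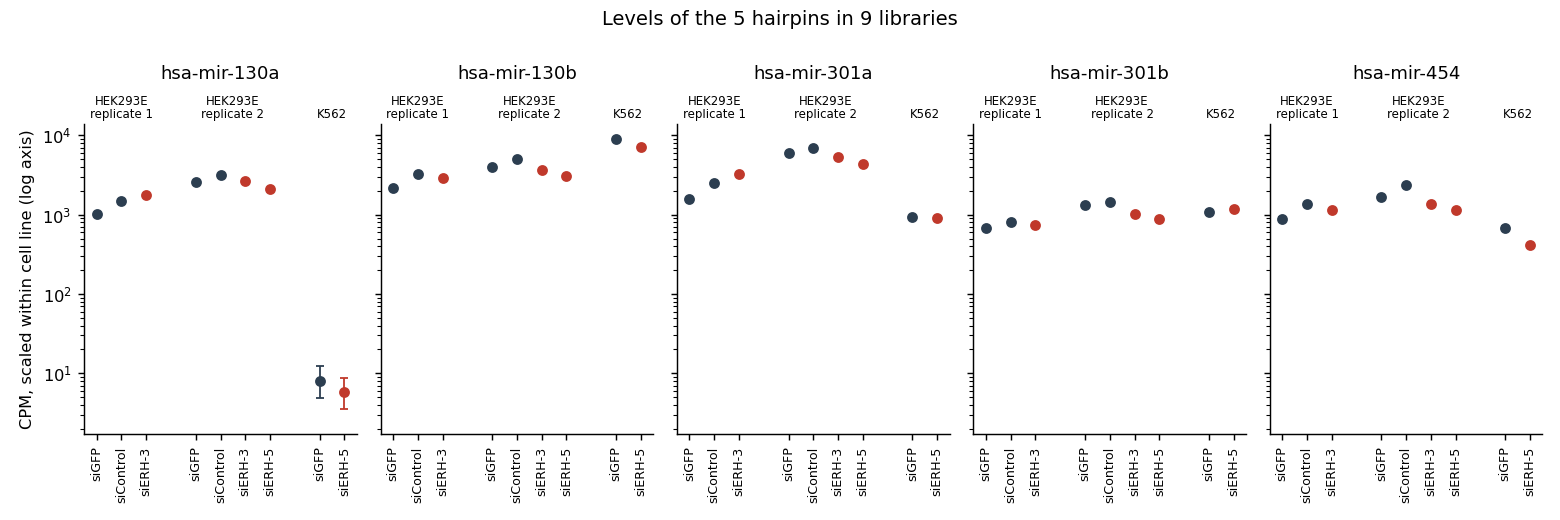
Level of each hairpin in every library, as CPM scaled within the cell line on a log axis, with siGFP and siControl in dark blue, siERH in red and bars for the 95% counting interval (mostly smaller than the points). All 5 hairpins are between 674 and 6969.97 CPM in HEK293E, whereas hsa-mir-130a is at 8.02 and 5.73 CPM in K562.

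K562 expressed the family in another order. In the K562 siGFP and siERH-5 libraries, hsa-mir-130b stood at 8996 and 7227 CPM, hsa-mir-301b at 1093 and 1195, hsa-mir-301a at 925 and 907, hsa-mir-454 at 679 and 411, and hsa-mir-130a at 8.02 and 5.73 CPM. The hsa-mir-130a values rest on 19 and 21 counts, with 95% exact Poisson intervals of 4.83 to 12.5 CPM with siGFP and 3.55 to 8.77 CPM with siERH-5, which cover counting error only. By count, hsa-mir-130a thus ranked 100 to 155 among the hairpins of the HEK293E controls and 466 and 543 in K562, while hsa-mir-130b ranked 65 to 107 in the controls and 28 and 34 in K562. Both K562 libraries gave the same order, hsa-mir-130b, hsa-mir-301b, hsa-mir-301a, hsa-mir-454 and hsa-mir-130a.

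To set the lines side by side, the K562 siGFP library was compared with the mean of the 2 HEK293E siGFP libraries, with no test because K562 has 1 such library. With TMM over all 9 libraries, hsa-mir-130a was 104-fold lower in K562 (log2 ratio -6.70), hsa-mir-130b was 5.82-fold higher (2.54), hsa-mir-301b was 2.17-fold higher (1.12), hsa-mir-301a was 2.04-fold lower (-1.03), and hsa-mir-454 had a log2 ratio of 0.07. The scaling matters here, because TMM factors were 0.53 and 0.66 in K562 and 1.00 to 1.28 in HEK293E. On library totals alone the log2 ratios were -7.69 for hsa-mir-130a, 1.45 for hsa-mir-130b, 0.03 for hsa-mir-301b, -2.08 for hsa-mir-301a and -1.01 for hsa-mir-454. The deficit of hsa-mir-130a, the excess of hsa-mir-130b and the lower hsa-mir-301a kept their direction on both scales, hsa-mir-301b was about level on library totals, and hsa-mir-454 changed direction. Against the HEK293E siGFP libraries one at a time, with TMM, hsa-mir-301a had a log2 ratio of -1.69 against one and 0.24 against the other, so its direction also depends on the HEK293E replicate. hsa-mir-130a kept a deficit against both, with log2 ratios of -7.22 and -5.89, and hsa-mir-130b an excess, with 2.17 and 3.05.

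The summed family was 2.14-fold higher in K562 with TMM (log2 1.10) and level on library totals (log2 0.02). Per 1000000 hairpin counts of a library the 5 hairpins summed to 6802 in siGFP, 8916 in siControl and 10700.5 in siERH-3 of replicate 1. In replicate 2 they summed to 14052.5 in siGFP, 16199 in siControl, 14756 in siERH-3 and 12586 in siERH-5. The K562 libraries held 10609 with siGFP and 10748 with siERH-5, inside the HEK293E range.

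Shares within the family do not depend on scaling. hsa-mir-130b made up 76.9% of the family's counts in K562 siGFP (95% Wilson interval 76.4 to 77.4) and 74.2% in K562 siERH-5 (73.7 to 74.6), against 25.7 to 34.4% in the 7 HEK293E libraries. hsa-mir-301a made up 7.90% and 9.30% in K562 against 24.7 to 38.4% in HEK293E. The solitary hsa-mir-130a made up 0.0685% in K562 siGFP (0.0439 to 0.107) and 0.0588% in K562 siERH-5 (0.0385 to 0.0900), against 15.6 to 19.1% in HEK293E. For these 3 hairpins the K562 shares lay outside the HEK293E range. hsa-mir-301b took 9.34% in K562 siGFP and 12.3% in K562 siERH-5 against 7.30 to 10.7% in HEK293E, and hsa-mir-454 took 5.80% and 4.21% against 9.75 to 14.6%. The hsa-mir-454 shares in K562 were thus below the HEK293E range, and hsa-mir-301b was above it with siERH-5 and inside it with siGFP.

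Within HEK293E, hsa-mir-130a held 16.1, 15.6, 16.5 and 16.7% of the family in the controls (siGFP and siControl of replicate 1, then of replicate 2) and 18.0, 19.1 and 18.3% in siERH-3 of replicate 1, siERH-3 of replicate 2 and siERH-5, so its share was higher in the 3 siERH libraries than in any control. The share of hsa-mir-301b was 8.92 ± 1.27% in the controls (SD, n = 4) and 7.47 ± 0.15% with siERH (SD, n = 3), with a highest siERH value of 7.58% against a lowest control value of 7.66%. hsa-mir-454 held 13.0 ± 1.7% in the controls and 10.4 ± 1.1% with siERH, and the groups overlapped. These shares are given with no test, since the members add up to a whole and 1 share moves the others. Lack of overlap was common: siERH lay outside the control range for 44.6% of 773 hairpins in CPM. The same held for 36.5% of 52 ratios of neighbouring hairpins. A background for shares within other families was not computed.

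**Figure D2:**
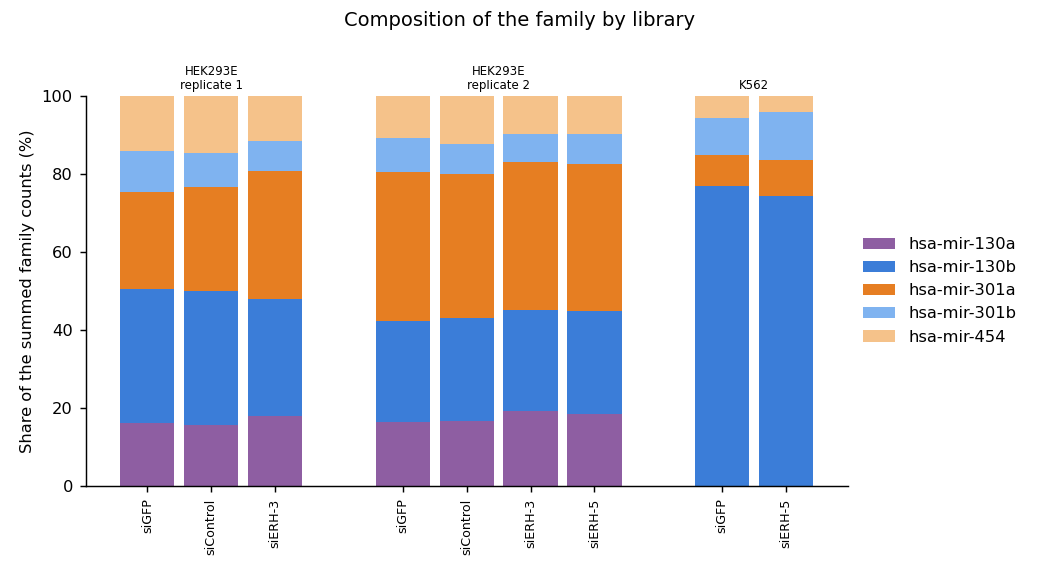
Share of each hairpin in the summed family counts of a library, in percent, with neighbours drawn in 2 tints of a colour (blue for hsa-mir-130b and hsa-mir-301b, orange for hsa-mir-301a and hsa-mir-454) and hsa-mir-130a in purple. hsa-mir-130b takes 76.9 and 74.2% in the K562 libraries and at most 34.4% in HEK293E, where hsa-mir-301a is at 24.7% in replicate 1 siGFP and 38.4% in replicate 2 siGFP.

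In HEK293E all 5 members were higher in replicate 2 than in replicate 1 with each of the 3 siRNAs that have both, and the gap was widest for hsa-mir-301a. With siGFP, replicate 2 exceeded replicate 1 by 3.80-fold for hsa-mir-301a, 2.50-fold for hsa-mir-130a, 1.97-fold for hsa-mir-301b, 1.88-fold for hsa-mir-454 and 1.83-fold for hsa-mir-130b. With siControl the same ratios were 2.78-fold, 2.15-fold, 1.77-fold, 1.71-fold and 1.54-fold. Among 773 hairpins the ratio of hsa-mir-301a ranked 2 with both control siRNAs. With siERH-3 the gaps were narrower, 1.64-fold for hsa-mir-301a, 1.52-fold for hsa-mir-130a, 1.37-fold for hsa-mir-301b, 1.24-fold for hsa-mir-130b and 1.19-fold for hsa-mir-454. The median over all 773 hairpins was a log2 gap of -0.05 with siGFP, -0.03 with siControl and 0.00 with siERH-3. Each gap compares 1 library with 1 library, so these values have no test.

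The control siRNAs were compared to see how far the members vary without siERH. In replicate 1, siControl exceeded siGFP by a log2 ratio of 0.68 for hsa-mir-301a, 0.62 for hsa-mir-454, 0.58 for hsa-mir-130b, 0.53 for hsa-mir-130a and 0.28 for hsa-mir-301b, and in replicate 2 by 0.23, 0.49, 0.32, 0.31 and 0.12. All 5 were thus higher with siControl in both replicates, while the median hairpin differed by 0.03 and 0.02. Without accounting for the replicate number, the quasi-likelihood test of edgeR, adjusted by Benjamini-Hochberg, called 0 of the 5, against 0 of 730 hairpins (0% in each direction). Of the 730, 24 had an unadjusted p under 0.05, none of them a member, and DESeq2 called 2 lower and 2 higher.

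With the replicate number as a block, the same edgeR test called 4 of the 5 higher with siControl, against 9.86% of the 730 hairpins called higher and 8.36% called lower. These were hsa-mir-454 (log2 fold change 0.55 ± 0.11 SE, adjusted p = 5.91e-05), hsa-mir-301a (0.45 ± 0.11, adjusted p = 0.000646), hsa-mir-130b (0.44 ± 0.11, adjusted p = 0.000899) and hsa-mir-130a (0.41 ± 0.11, adjusted p = 0.0037). hsa-mir-301b, with 0.19 ± 0.12 and an adjusted p of 0.268, was not called. Each replicate holds 1 library per control siRNA, and edgeR estimates the spread of a hairpin partly from the other hairpins. These SE and p-values therefore do not measure the spread of a member alone. For hsa-mir-301a the log2 ratios within replicates were 0.68 and 0.23. The median of the 5 members in that edgeR fit was 0.44 and that of all hairpins 0.04. With the G+C trend removed as well, edgeR still called hsa-mir-454 (0.44, adjusted p = 0.0342) and hsa-mir-130b (0.46, adjusted p = 0.0449), but neither hsa-mir-130a (0.38, adjusted p = 0.0666) nor hsa-mir-301a (0.35, adjusted p = 0.166). With both adjustments, 34 of the 730 hairpins were called higher and 27 lower. Over all alternatives the edgeR adjusted p ran up to 0.9997 for each of the 5. The siERH comparison below uses the same control libraries, and the level of its baseline therefore depends on which control siRNA is taken.

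The main comparison asked whether the members differ when ERH is targeted. None of the 5 passed the test in the 3 siERH libraries against the 4 controls of HEK293E. By the same edgeR test, 0 of 5 passed, and none had an unadjusted p under 0.05, whereas 40% of the 773 hairpins tested were called, 16.2% lower and 23.8% higher. DESeq2 and limma called none of the 5 either. The siERH libraries lay outside the range of the controls for 0 of the 5, against 44.6% of all hairpins. That range spans both replicates, and it was wide for the members. With siGFP they were 1.83- to 3.80-fold higher in replicate 2, against a median log2 gap of -0.05 over all hairpins. The background split depends on scaling: 125 lower and 184 higher with TMM (40.5% of calls lower) became 67 and 212 on library totals (24.0% lower), and the median over all hairpins moved from -0.01 to 0.19 in log2, and 151 and 127 with the G+C trend removed (54.3% lower). The lower calls also fell to 77 without siERH-3 replicate 1 and to 76 without siERH-3 replicate 2.

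Of the SKA2 neighbours, hsa-mir-454 averaged 1218 ± 126 CPM with siERH (SD, n = 3) against 1569 ± 608 in the controls, and edgeR put the log2 fold change at -0.37 ± 0.27 (SE, adjusted p = 0.317). hsa-mir-301a averaged 4294 ± 1033 against 4242 ± 2614 CPM, 0.02 ± 0.43 in log2 (SE; edgeR, adjusted p = 0.973). The SD was widest for hsa-mir-301a, whose replicate 2 libraries were all above its replicate 1 libraries, and on DESeq2's size factors its estimate was -0.05.

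Of the chromosome 22 neighbours, hsa-mir-301b averaged 879 ± 139 against 1068 ± 379 CPM, -0.28 ± 0.27 in log2 (SE; edgeR, adjusted p = 0.426). hsa-mir-130b averaged 3210 ± 376 against 3586 ± 1183 CPM, -0.16 ± 0.25 in log2 (SE; edgeR, adjusted p = 0.637), or 0.06 on library totals. The solitary hsa-mir-130a averaged 2187 ± 460 against 2044 ± 977 CPM, 0.10 ± 0.34 in log2 (SE; edgeR, adjusted p = 0.834). The median of the 5 members was -0.16, against -0.01 for all hairpins. With a standard error of 0.25 to 0.43 in log2, changes of the size seen here were not resolved without the replicate block. With that block edgeR gave smaller standard errors, 0.16 to 0.22, and still called no member. hsa-mir-454 was then at -0.39 (edgeR adjusted p = 0.116) and hsa-mir-301b at -0.33 (adjusted p = 0.0981). The other members were at -0.20 (hsa-mir-130b, adjusted p = 0.355), 0.06 (hsa-mir-130a, 0.786) and 0.03 (hsa-mir-301a, 0.901).

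**Figure D3:**
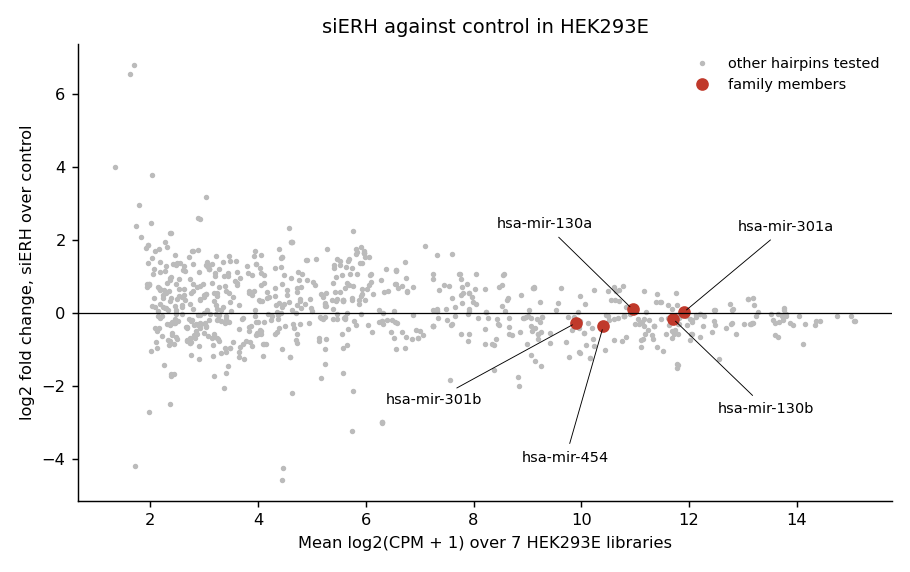
log2 fold change of siERH over control in HEK293E (edgeR, y axis) against mean log2(CPM + 1) over the 7 HEK293E libraries (x axis), with each grey point 1 of the 773 hairpins tested and the members in red. The members sit between -0.37 and 0.10, close to the zero line, at the abundant end of the range.

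Within replicates the picture differed by experimental group. In replicate 1, with 1 siERH library, hsa-mir-301a and hsa-mir-130a were above both controls with siERH-3, by 0.70 and 0.53 in log2 over the mean of the 2 controls. hsa-mir-130b (0.15), hsa-mir-454 (0.05) and hsa-mir-301b (0.00) lay between their controls, and the median hairpin was at 0.11. The share of all hairpins above both replicate 1 controls was not computed, so these positions have no background. In replicate 2 the members were on the other side. siERH-3 gave -0.54 for hsa-mir-454, -0.44 for hsa-mir-301b, -0.29 for hsa-mir-130b, -0.28 for hsa-mir-301a and -0.08 for hsa-mir-130a. siERH-5 gave -0.78, -0.67, -0.54, -0.55 and -0.41 for the same hairpins, with medians over all hairpins of 0.02 for siERH-3 and 0.05 for siERH-5. All 5 values were below 0 with either siRNA, and both sets share the 2 replicate 2 controls. In both siERH libraries 4 of the 5, all but hsa-mir-130a, were below both replicate 2 controls, as were 32.7% of the 773 hairpins.

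**Figure D4:**
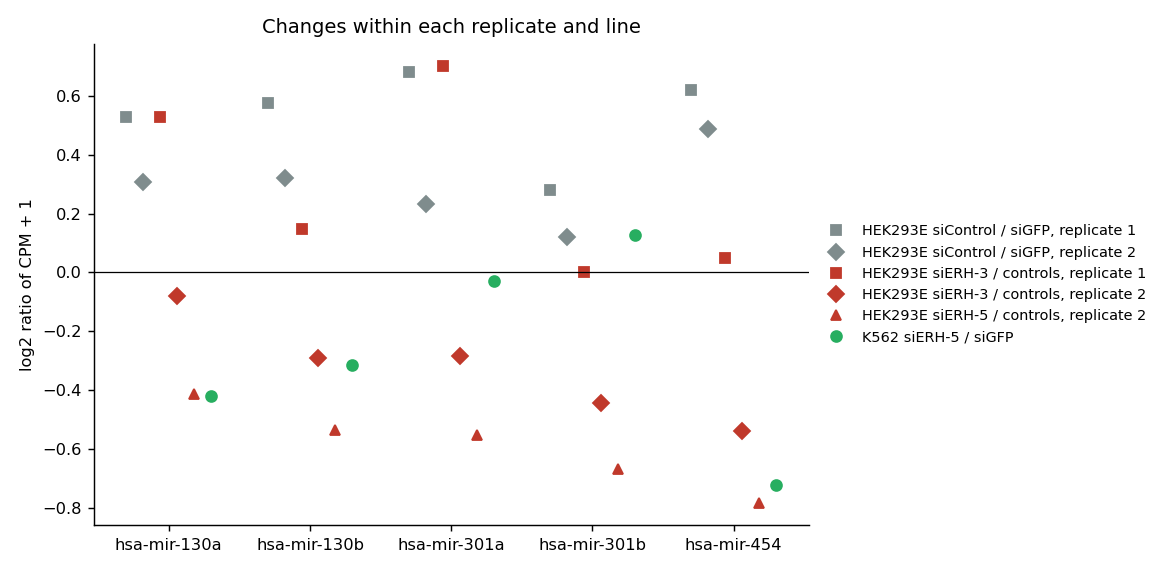
log2 ratios of CPM + 1 for each hairpin within a replicate or line, with siControl over siGFP in grey, siERH over the mean of the replicate's 2 controls in red and K562 siERH-5 over siGFP in green. All 5 hairpins have positive grey points in both replicates, the red replicate 1 squares are at or above 0, and the red replicate 2 points are all below 0.

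Taken alone, the 4 replicate 2 libraries gave calls that the full comparison did not. The edgeR test on them called 3 of the 5 lower, against 12.9% of 770 hairpins called lower and 23.6% called higher: hsa-mir-454 (-0.63, adjusted p = 0.0169), hsa-mir-301a (-0.37, adjusted p = 0.0424) and hsa-mir-301b (-0.51, adjusted p = 0.0429). hsa-mir-130b, with -0.37 (adjusted p = 0.0622), and hsa-mir-130a, with -0.20 (adjusted p = 0.358), did not pass edgeR's threshold there. Each side of this comparison holds 2 different siRNAs with 1 library each, and edgeR estimates the spread partly from other hairpins. These p-values therefore do not measure the spread of a member alone. For hsa-mir-301a and hsa-mir-130a the sign is opposite to that over all 7 libraries. Over all alternatives the adjusted p in these tests ran from 0.00144 to 0.831 for hsa-mir-454, from 0.0424 to 0.991 for hsa-mir-301a and from 0.0429 to 0.928 for hsa-mir-301b. A test of the difference between the experimental groups was not made, as replicate 1 holds 1 siERH library.

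hsa-mir-454 passed the test under some alternatives over all experimental groups. It was called lower by edgeR once a G+C trend was removed, namely each library's trend of deviation from the hairpin means with hairpin G+C content. The log2 fold change was then -0.94 (edgeR adjusted p = 0.0125) without the replicate block and -0.97 (adjusted p = 0.00144) with it. Of 773 hairpins, edgeR called 151 lower and 127 higher without the block, and 180 lower and 169 higher with it. hsa-mir-454 was also called lower when siGFP replicate 1 was left out, at -0.56 (edgeR adjusted p = 0.0487). There 130 of 770 hairpins were called lower and 189 higher. hsa-mir-301a, the other member of low G+C content, moved with the G+C trend removed to -0.50, where edgeR gave an adjusted p of 0.363 without the block and 0.0732 with it. The choice of control siRNA moved every member. Against siGFP alone the log2 fold changes were 0.28 for hsa-mir-130a, 0.18 for hsa-mir-301a, 0.05 for hsa-mir-130b, -0.09 for hsa-mir-454 and -0.20 for hsa-mir-301b, and against siControl alone -0.11, -0.17, -0.38, -0.64 and -0.40. No member passed in either.

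Neighbour ratios were taken from raw counts within a library, so scaling between libraries does not enter. For hsa-mir-301b over hsa-mir-130b, the log2 ratio in the HEK293E controls was -1.69 and -1.98 with siGFP and siControl of replicate 1 and -1.58 and -1.78 with those of replicate 2. With siERH it was -1.98 for siERH-3 of replicate 1, -1.83 for siERH-3 of replicate 2 and -1.81 for siERH-5. The siERH values lay inside the control range, and siControl gave a lower ratio than siGFP in both replicates, by -0.30 and -0.20. The means were -1.76 ± 0.17 (SD, n = 4) and -1.87 ± 0.09 (SD, n = 3), a difference of -0.12 (two-sided exact permutation test over 35 splits, p = 0.314, also 0.314 after adjustment over the 2 ratios). The difference depends on the control siRNA. Against siGFP alone it was -0.24, with all 3 siERH ratios below both siGFP ratios (exact permutation p = 0.1, the smallest that 10 splits allow), and against siControl alone it was 0.0065 (exact permutation p = 0.9).

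For hsa-mir-454 over hsa-mir-301a, the log2 ratio was -0.81 and -0.87 with siGFP and siControl of replicate 1 and -1.83 and -1.57 with those of replicate 2. With siERH it was -1.50 for siERH-3 of replicate 1, -1.95 for siERH-3 of replicate 2 and -1.93 for siERH-5. The siERH ratio was below both controls in each replicate, by -0.65 in replicate 1 and -0.24 in replicate 2 against their mean, but replicate 1 siERH-3 was still inside the range of all 4 controls. The means were -1.27 ± 0.51 (SD, n = 4) and -1.79 ± 0.26 (SD, n = 3), a difference of -0.52 or 1.44-fold (two-sided exact permutation test, p = 0.171, adjusted 0.314, with 0.0286 the smallest p that 35 splits allow). Permuted within replicates, the exact p was 0.0556, the smallest that 18 splits can give, for a difference of -0.41.

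Such shifts between neighbours were common in these libraries. Among 52 pairs of hairpins at most 20000 bases apart, each averaging 100 counts or more, 36.5% had siERH ratios outside the control range, and neither family pair did. In 51.9% the siERH ratios were outside the controls of each replicate in the same direction, as was hsa-mir-454 over hsa-mir-301a. By absolute difference that pair ranked 20 and hsa-mir-301b over hsa-mir-130b ranked 45 of the 52, around a median of 0.39.

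**Figure D5:**
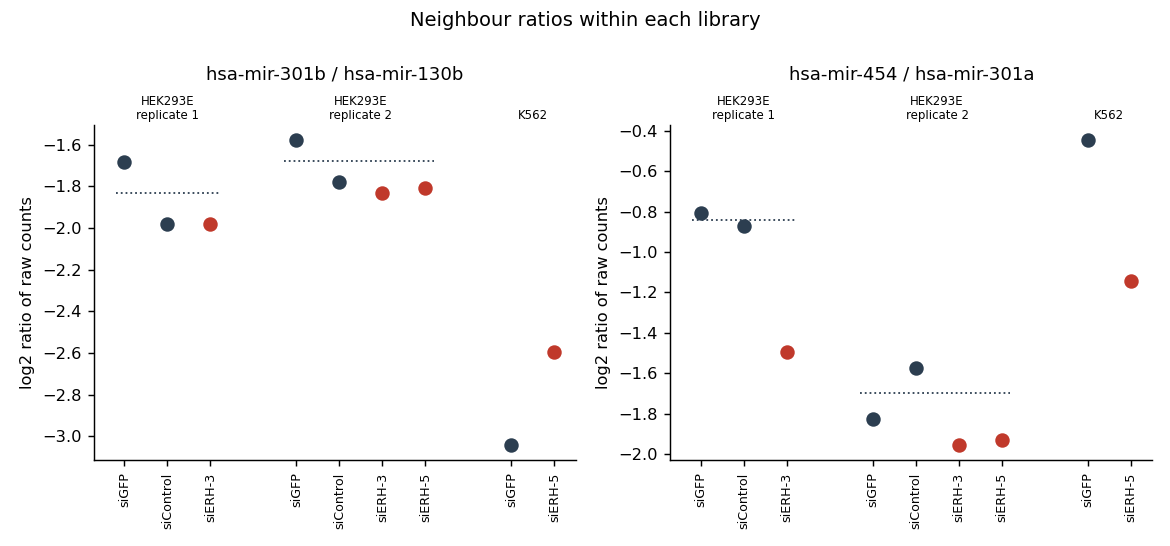
log2 ratio of raw counts of neighbouring hairpins in each library (y axes differ between panels and do not start at 0), with controls in dark blue, siERH in red and dotted lines at the mean of the 2 HEK293E controls of a replicate. The ratio of hsa-mir-454 to hsa-mir-301a is below both controls in each HEK293E replicate and goes from -0.45 to -1.14 in K562, while that of hsa-mir-301b to hsa-mir-130b goes from -3.04 to -2.60 in K562.

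In K562, with 1 library per siRNA and no test, hsa-mir-454 had the lowest siERH-5 value of the members relative to siGFP. The log2 ratio of siERH-5 over siGFP was -0.72 for hsa-mir-454 (95% counting interval -0.83 to -0.62), -0.32 for hsa-mir-130b (-0.34 to -0.29), -0.03 for hsa-mir-301a (-0.11 to 0.05) and 0.13 for hsa-mir-301b (0.06 to 0.20). hsa-mir-130a, with its 19 and 21 counts, gave -0.42 (-1.45 to 0.49), which counting error alone spans. None of the 5 reached 2-fold, against 6.81% of 646 hairpins that were lower by this much and 10.1% that were higher, and the median was -0.32 over the members and 0.11 over all. On library totals hsa-mir-301a was at 0.25, hsa-mir-301b at 0.41, hsa-mir-130b at -0.03 and hsa-mir-454 at -0.44. The same siRNA in HEK293E replicate 2, over the mean of both controls, gave 0 of 5 at 2-fold, against 7.37% lower and 15.5% higher. Against siGFP of replicate 2 alone, the control siRNA that K562 also has, it gave -0.61 for hsa-mir-301b, -0.54 for hsa-mir-454, -0.44 for hsa-mir-301a, -0.38 for hsa-mir-130b and -0.26 for hsa-mir-130a. On that matching control hsa-mir-301b, not hsa-mir-454, was lowest in HEK293E.

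The neighbour ratios in K562 moved in opposite directions. hsa-mir-454 made up 42.3% of the counts of hsa-mir-454 and hsa-mir-301a with siGFP (Wilson interval 40.8 to 43.9) and 31.2% with siERH-5 (29.9 to 32.5), a log2 ratio going from -0.45 to -1.14, lower by -0.70. hsa-mir-301b made up 10.8% of the counts of hsa-mir-301b and hsa-mir-130b with siGFP (10.4 to 11.2) and 14.2% with siERH-5 (13.8 to 14.6), from -3.04 to -2.60 in log2, a change of 0.44. For hsa-mir-454 over hsa-mir-301a the siERH value was therefore on the lower side in both lines, and for hsa-mir-301b over hsa-mir-130b it was on the higher side in K562 and on the lower side, within the control range, in HEK293E. Whether the lines differ was not tested. The hsa-mir-301b to hsa-mir-130b ratio itself was lower in both K562 libraries than in any HEK293E library.

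The 3 hairpins whose seed is shifted by 1 base (hsa-mir-148a, hsa-mir-148b and hsa-mir-152) were examined beside the family. In the siERH comparison edgeR called 0 of the 3, with unadjusted p under 0.05 for hsa-mir-148a alone, and 1 of the 3 with the replicate block, against 48.6% of all hairpins called with that block, 20.6% lower and 28.1% higher. hsa-mir-148a stood at 4572, 5965, 7309 and 8183 CPM in the controls and at 4259, 4717 and 4523 CPM with siERH, and the siERH libraries overlapped only with the lowest control, siGFP of replicate 1. edgeR gave it -0.53 ± 0.20 in log2 (SE, adjusted p = 0.0527), or -0.57 with the replicate block (adjusted p = 0.00495, with a range over the alternatives of 0.00041 to 0.200). hsa-mir-148b (-0.14, edgeR adjusted p = 0.66) and hsa-mir-152 (0.08, edgeR adjusted p = 0.867) did not pass. hsa-mir-148b was called lower by edgeR with the replicate block and the G+C trend removed (-0.58, adjusted p = 0.00526) and in replicate 2 alone (-0.35, adjusted p = 0.0473), with a range over the alternatives of 0.00526 to 0.986. hsa-mir-152 passed under none of the alternatives run (edgeR, DESeq2 or limma adjusted p from 0.416 to 0.985) and went to -0.41 without siERH-5. In K562 hsa-mir-152 stood at 103 CPM with siGFP and 212 CPM with siERH-5, a log2 ratio of 1.03 (counting interval 0.82 to 1.25), which is past 2-fold but rests on 1 library per siRNA.

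Across the 7 HEK293E libraries the members varied together in log2(CPM + 1), with Pearson r from 0.812 between hsa-mir-301a and hsa-mir-454 to 0.994 between hsa-mir-130a and hsa-mir-301a. The value for hsa-mir-130a with hsa-mir-454, which lie on different chromosomes, was 0.814, about the same as for the neighbours on chromosome 17. For the neighbours on chromosome 22 it was 0.937. The spread of r over all pairs of hairpins is not given here. The comparison was among 347 hairpins averaging 100 counts or more, with near-identical copies taken once, as the copy with the highest total. Outside the family, hsa-mir-26a-2 was closest to hsa-mir-130a (r = 0.990), followed by hsa-mir-132 and hsa-mir-103a-2. hsa-mir-26a-2 was also closest to hsa-mir-301a (0.981), followed by hsa-mir-582 and hsa-mir-17. hsa-mir-455 was closest to hsa-mir-130b (0.983), ahead of hsa-mir-103a-2 and hsa-mir-107, and closest to hsa-mir-454 (0.976), ahead of hsa-mir-30b and hsa-mir-598. hsa-mir-148b was closest to hsa-mir-301b (0.972), ahead of hsa-mir-15b and hsa-mir-32. These correlations describe 7 libraries that share experimental groups and scaling.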

How the data were processed

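Small RNAs of 18–30 nt from 10 µg of total RNA with 30 spike-ins were ligated to adapters with 4 random nucleotides, per the labels' protocols. The submitters' processing notes name cutadapt, Bowtie2, bedtools and hg38, with no versions. The authors deposited raw counts per hairpin (blank cells, 2336 in all, were read as 0) and RPM values, which recomputation showed to be 1000000 × (count + 1)/(total + 1485). No source used here says if reads were collapsed to molecules, and intervals cover counting error only. Spike-ins were not used here, so all values are relative to other hairpins.

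Counts were tested with edgeR 4.0.16 (R 4.3.3; TMM, quasi-likelihood, Benjamini-Hochberg over all hairpins averaging 10 counts or more, threshold 0.05). DESeq2 1.42.0 and limma 3.58.1 on log2(RPM + 1) were alternatives, as were other scalings, filters, control sets, a G+C trend removal, leaving out each library and the replicate block. CPM used TMM within a line, with a pseudocount of 1 for log2 ratios. Pairing comes from the replicate numbers, which match the labels' experimental groups. Replicate deviations correlated across hairpins at 0.692, 0.480 and 0.519 for the 3 pairs of siRNAs. Neighbour ratios used exact permutation tests. Scripts were tested on simulated data. Hairpins matched GENCODE release 29 by symbol for 1480 of 1485, and folding used RNAfold 2.7.2. RefSeq sequences were found for 4 of the 5 mature 3p strands. Members and lists were chosen with earlier results of these data known. Hairpins outside the family were named from 3 lists: those with the seed, those with a seed shifted by 1 base, and the 3 most correlated with each member.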

Additional observations from a re-analysis of the deposited data

How the results depend on the processing

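The edgeR count of hairpins lower with siERH in HEK293E, 125, became 67 on library totals, 66 with limma and 63 with a mean of at least 100 counts, and 76 to 130 when a library was left out. The count higher, 184, became 82 with a mean of at least 100 counts, where fewer hairpins are tested, and 136 to 189 when a library was left out. The replicate block gave 159 and 217, and with the G+C trend removed as well 180 and 169. The block alone changed no siERH call of a member. With the G+C trend removed as well, hsa-mir-454 was called lower (-0.97, edgeR adjusted p = 0.00144). For siControl against siGFP, 0 lower and 0 higher became 2 and 2 with DESeq2, 2 and 2 with no filter, 61 and 72 with the replicate block, and 27 and 34 with the block and the G+C trend removed. Leaving out a library gave 0 lower and 0 to 1 higher. The cause was not tested.

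Log2 fold changes with siERH that changed sign were, for hsa-mir-130a, -0.0076 with no filter, -0.20 in replicate 2 alone, -0.11 with siControl alone and -0.13 to 0.38 when a library was left out. For hsa-mir-130b they were 0.057 on library totals, 0.087 with limma, 0.049 with siGFP alone and -0.34 to 0.030 when a library was left out. For hsa-mir-301a they were -0.051 with DESeq2's size factors, -0.051 with DESeq2, -0.092 with no filter, -0.50 with the G+C trend removed, with or without the block, -0.37 in replicate 2 alone, -0.17 with siControl alone and -0.26 to 0.36 when a library was left out. For hsa-mir-148b they were 0.076 on library totals, 0.10 with limma and -0.30 to 0.0059 when a library was left out. For hsa-mir-152 they were -0.024 with no filter, -0.027 with the replicate block, -0.066 in replicate 2 alone, -0.034 with siGFP alone and -0.41 to 0.34 when a library was left out. For siControl against siGFP, leaving out a library gave -0.29 to 1.18 for hsa-mir-130a, -0.59 to 1.60 for hsa-mir-301a and -0.30 to 0.74 for hsa-mir-301b. The difference in the ratio of hsa-mir-301b to hsa-mir-130b became 0.0065 with siControl alone (exact permutation p = 0.9) and -0.24 with siGFP alone (exact permutation p = 0.1), and in the replicate block it was -0.14 (exact p = 0.278). When a library was left out it was -0.19 to -0.06, and for hsa-mir-454 to hsa-mir-301a -0.71 to -0.37.

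Of hairpins at least 2-fold lower and higher in K562, 44 and 65 became 23 and 109 on library totals and 21 and 15 with a pseudocount of 10. For siERH-5 in HEK293E, 57 and 120 became 34 and 190, and 36 and 63. The K562 to HEK293E log2 ratio of hsa-mir-454 was -1.01 on library totals and -0.20 against all 4 controls, an alternative added after seeing the data, as was siGFP alone for siERH-5 in HEK293E, and that of the summed family was 0.025 on library totals. Depth limits hsa-mir-130a in K562 alone, at 19 and 21 counts.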
